A study of Setaria italica with 24 samples.

Results

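Arbuscular mycorrhizal symbiosis (AMS) joins plant roots with soil fungi (AMF) that grow branched arbuscules inside cortical cells, where the fungus delivers phosphate and the plant supplies lipid and sugar. A host root entering this symbiosis switches on transporters, lipid enzymes, regulators and secreted proteins, and genes of defence and phenylpropanoid metabolism often change with them. The genes described here are those whose transcript level was higher in AMF-treated than in mock-treated roots in each of 3 foxtail millet (Setaria italica) lines. A gene was taken when the lowest AMF library stood above the highest mock library in every line and log2((mean AMF + 1)/(mean mock + 1)), called the log2 ratio below, was at least 1 in every line. There were 220 such genes among 23323 protein-coding genes that had a mean normalized count of at least 5 in each line. The rule set aside 5 AMS marker genes, namely the phosphate transporter PHT1;9, the GRAS regulator RAM1, the acyltransferase RAM2, the ABC transporter STR2 and the acyl-ACP thioesterase FatM, of which 3 would have met it. Since the difference between AMF and mock chose the 220 genes, that difference is given as a description with no test.

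Roots were sequenced from 3 lines, the landrace Hanevalval, the cultivar TT8 and a landrace that the labels call ICE36 and the study spells ISE36. Within each line, 4 libraries came from AMF-treated plants, inoculated with spores of Claroideoglomus etunicatum, and 4 from mock-treated plants, which makes 24 libraries. All plants were transplanted as seedlings into autoclaved sand and peat moss, and roots were collected 6 weeks after inoculation. The RNA was from a bulk part of the roots, in which fewer colonised cells and less RNA per colonised cell cannot be told apart. The study stained the other part for the fungus and reports similar colonization efficiency in its lines. Values are the authors' DESeq2 normalized counts, which are not divided by gene length, so levels are compared between samples and not between genes. The libraries held from 15013564 to 23333517 reads on genes. The labels do not say whether the 4 libraries of a group came from separate plants, so an SD or a p-value measures the spread between these libraries.

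The mock-treated libraries of Hanevalval and TT8 were not alike, and this bears on each ratio below. The 5 marker genes summed to 152 and 57.2 normalized counts in mock-treated replicates 3 and 4 of Hanevalval and to 135 in mock-treated replicate 4 of TT8, against 10.2 to 27.5 in the other 9 mock-treated libraries. The AMF-treated libraries held 212 to 2012 in Hanevalval, 3782 to 7013 in TT8 and 145 to 547 in ICE36. PHT1;9 had 97.0, 29.1 and 74.6 in those 3 mock-treated libraries, and 0 to 3.31 in the other 9. RAM2 had 14.9, 12.9 and 19.0 there, against 0 to 0.976, and FatM 16.8, 11.9 and 24.9, against 0.853 to 10.9. RAM1 had 18.7, 0 and 4.74, against 0 in the other 9. STR2 did not follow the sum, since it had 4.66 and 3.24 in mock-treated Hanevalval 3 and 4, against 21.7 and 20.9 in replicates 1 and 2, and its 11.8 in TT8 replicate 4 lay within the 7.81 to 12.1 of the other 3. The 3 libraries are called high in markers below for their sum. The 220 genes followed the same libraries. Their median value was 32.1% and 28.7% of the line's AMF mean in mock-treated Hanevalval 3 and 4, against 3.83% and 4.06% in replicates 1 and 2. In TT8 the median was 25.4% in mock-treated replicate 4, against 8.99%, 9.92% and 9.65% in the other 3. ICE36 had no mock-treated library with such marker levels, and its medians were 12.1%, 20.5%, 29.1% and 30.8%. Both replicates 3 and 4 of mock-treated Hanevalval were above both replicates 1 and 2 for 181 of the 220 genes (82.3%), and for 33.1% of all genes tested. Both replicates 1 and 2 were above for 2 of the 220 (0.909%), and for 33.6% of all genes. The split thus ran through all genes tested. Over them, Pearson's r was 0.976 between replicates 1 and 2, 0.951 between 3 and 4, and 0.873 to 0.896 across these pairs. The mock-treated replicate 4 was the highest of the 4 mock-treated TT8 libraries for 168 of the 220, a count that was not taken over all genes tested and is only a description. Whether these 3 libraries came from roots with fungus in them was not tested. The counts of calls, the median ratios over the 220 genes and the medians or ranges of ratios by list are also given without them. Single values are given without them for some genes only.

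**Figure D1:**
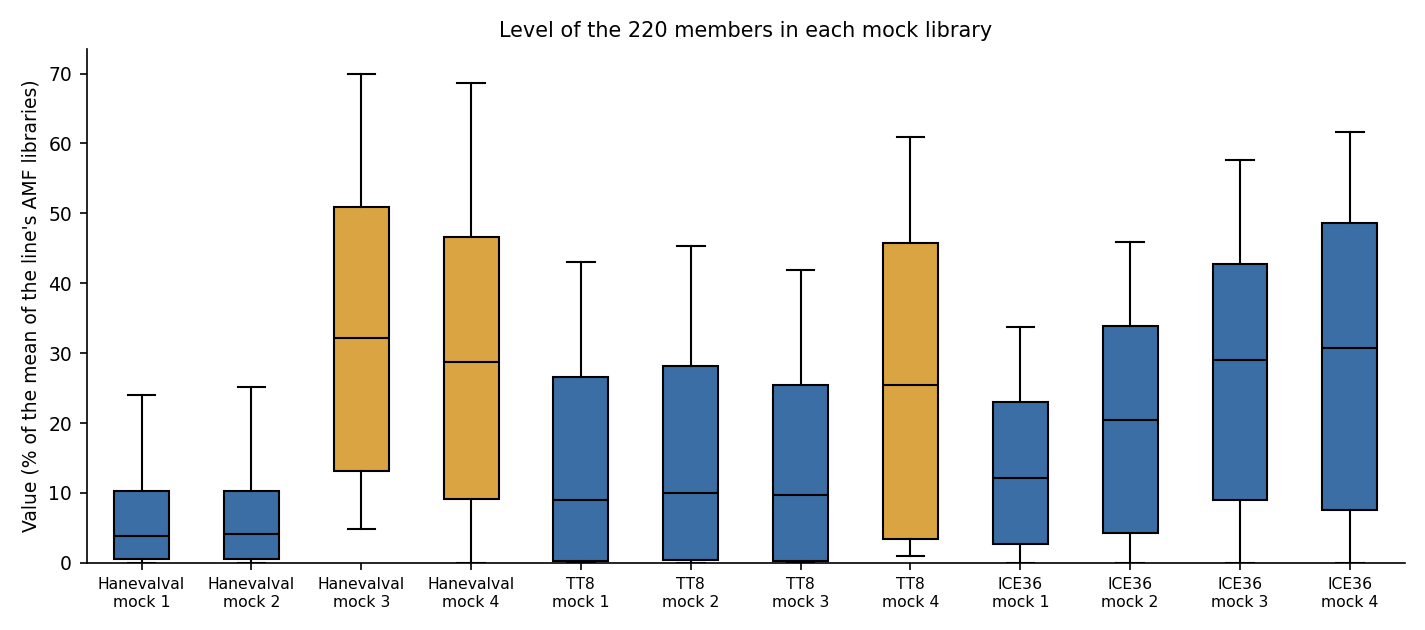
Value of each of the 220 genes in each of the 12 mock-treated libraries, as a percent of the mean of the 4 AMF-treated libraries of the same line. Boxes span the quartiles with the median as a line, whiskers the 5th to 95th percentile, and yellow boxes are the 3 mock-treated libraries in which the sum of the marker genes was high, with medians of 32.1%, 28.7% and 25.4%.

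The 220 genes took a larger share of the reads under AMF treatment in each line, as the rule requires. In Hanevalval they held 1.89%, 1.61%, 2.42% and 2.28% of the reads of the AMF-treated libraries, against 0.195%, 0.186%, 1.14% and 0.912% in the mock-treated ones. In TT8 the shares were 0.721%, 1.01%, 0.885% and 1.00% with AMF and 0.201%, 0.205%, 0.177% and 0.286% with mock treatment. ICE36 had 1.05%, 1.46%, 1.45% and 1.41% in AMF-treated roots and 0.279%, 0.454%, 0.547% and 0.581% in mock-treated roots. The share was thus larger in all 4 AMF-treated Hanevalval libraries than in any of the other 20 libraries. Within each AMF-treated group 1 library was the lowest for most of the genes. It was replicate 2 of Hanevalval for 169 of the 220, replicate 1 of TT8 for 148 and replicate 1 of ICE36 for 162. In Hanevalval and ICE36 these were also the libraries with the lowest marker sums of their groups, at 212 and 145, while in TT8 the lowest sum was in replicate 4. The counts of 169, 148 and 162 were not taken over all genes tested, so they do not set the 220 genes apart from the rest.

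**Figure D2:**
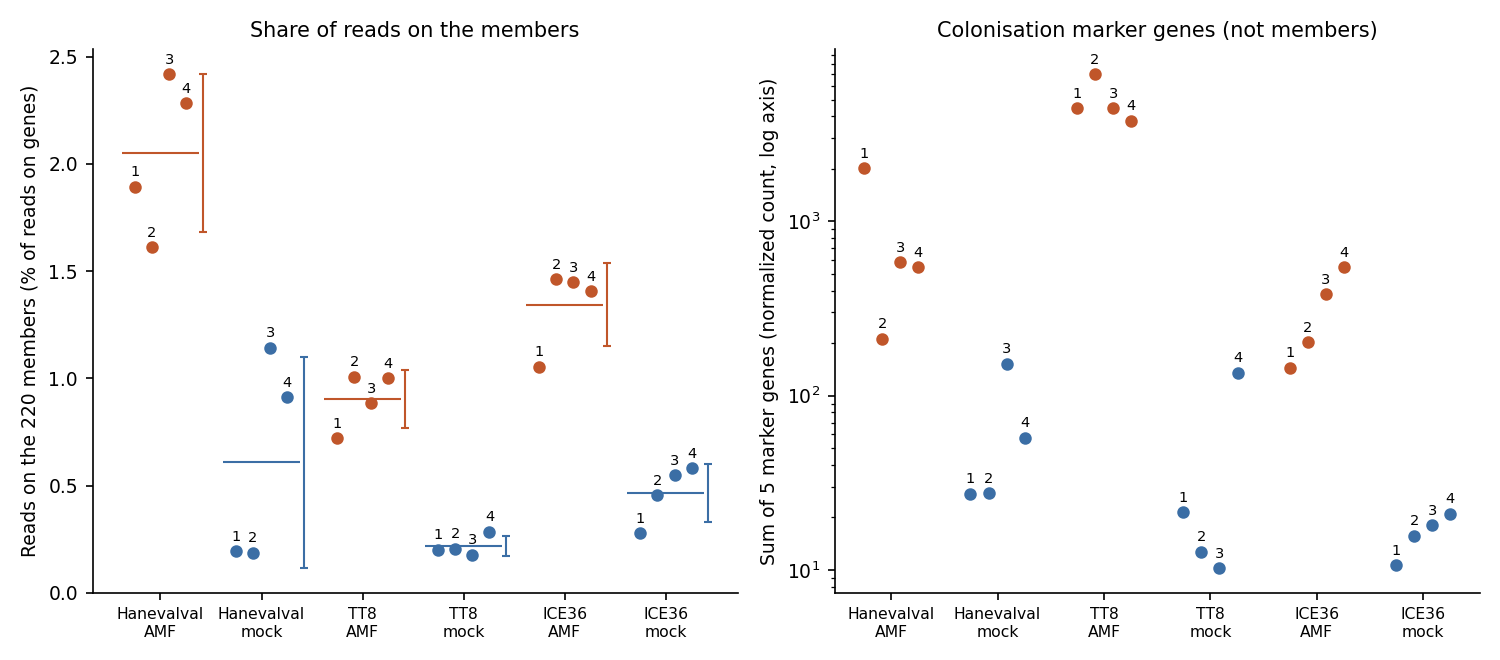
Left, percent of each library's reads on genes that fell on the 220 genes, with the group mean as a line and the SD as a bar at its right (n = 4); right, the sum of the 5 marker genes in normalized counts on a log axis. Each point is 1 library with its replicate number, and mock-treated Hanevalval 3 and 4 and TT8 4 stand above the other mock-treated libraries on the right, at 152, 57.2 and 135.

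Taken line by line, the rule was met by 1101 genes in Hanevalval (4.72% of all genes tested), 1529 in TT8 (6.56%) and 1184 in ICE36 (5.08%). With limma, a call (adjusted p no higher than 0.05, log2 difference 1 or more) was made on 79 of the 220 genes in Hanevalval, 215 in TT8 and 220 in ICE36, where 1.33%, 10.2% and 5.61% of all genes were called higher with AMF. Nothing is read from these counts, since the rule used the same difference. A further 147 genes met the rule in TT8 and ICE36 and missed it in Hanevalval, and for 103 of them the Hanevalval ratio reached the limit while the ranges of the treatments overlapped. Another 309 genes missed it only in TT8, with a median log2 ratio of 0.47 there, and 134 missed it only in ICE36, with a median of 0.69. Without the 3 mock-treated libraries high in markers, 460 genes met the rule, 217 of the 220 among them. At the limit itself, SETIT_009172mg, SETIT_016741mg and SETIT_006228mg were just inside, with smallest log2 ratios of 1.005, 1.007 and 1.010. SETIT_002803mg, SETIT_013382mg and SETIT_022114mg were just outside, at 0.995, 0.983 and 0.982.

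The size of the response varied widely among the 220 genes. The log2 ratio had a median of 2.31 in Hanevalval, with a range of 1.01 to 6.39. In TT8 the median was 2.55 and the range 1.01 to 8.88, and in ICE36 the median was 1.96 and the range 1.01 to 8.96. Over all genes tested the medians were -0.03, -0.02 and -0.01. A ratio of 4 or more was reached by 38 genes in Hanevalval, 74 in TT8 and 40 in ICE36. All 4 mock-treated libraries together held no read for 1 of the genes in Hanevalval, 3 in TT8 and 25 in ICE36, where the ratio depends on the pseudocount and is not a bound. With those genes set at their lower bound, from a floor of 3 reads over the 4 mock-treated libraries, the medians stayed at 2.31, 2.55 and 1.96. This had to be so, since a mean of at least 5 puts those genes above the medians either way. The unchanged medians therefore say nothing about the pseudocount.

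With all 24 libraries, the median ratios of the lines lay further apart among the genes with the largest mean ratios. TT8 had the highest ratio of the lines for 130 genes, Hanevalval for 63 and ICE36 for 27. Of the 60 genes with a mean log2 ratio of at least 4 over the lines, TT8 was highest for 53, and the median ratio among them was 6.84 in TT8, 4.18 in Hanevalval and 4.58 in ICE36. Among the other 160 the medians were 1.95 in TT8, 1.97 in Hanevalval and 1.67 in ICE36. Each line's own ratio enters the mean that parts the genes, so a line with large ratios is favoured among the 60. This split is a description and was not repeated without the 3 mock-treated libraries high in markers. The 3 ratios lay within 0.5 of each other for 49 genes and were 2 or more apart for 70. This order rests on the mock-treated libraries. Without the 3 high in markers, the median ratio was 4.22 in Hanevalval, 2.95 in TT8 and 1.96 in ICE36, and Hanevalval had the highest ratio for 146 genes, TT8 for 69 and ICE36 for 5. Across the 220 genes the ratios of TT8 and Hanevalval had a Pearson's r of 0.80, those of TT8 and ICE36 0.78 and those of ICE36 and Hanevalval 0.80. These values are descriptions across genes that were chosen on the ratios and are not independent replicates.

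**Figure D3:**
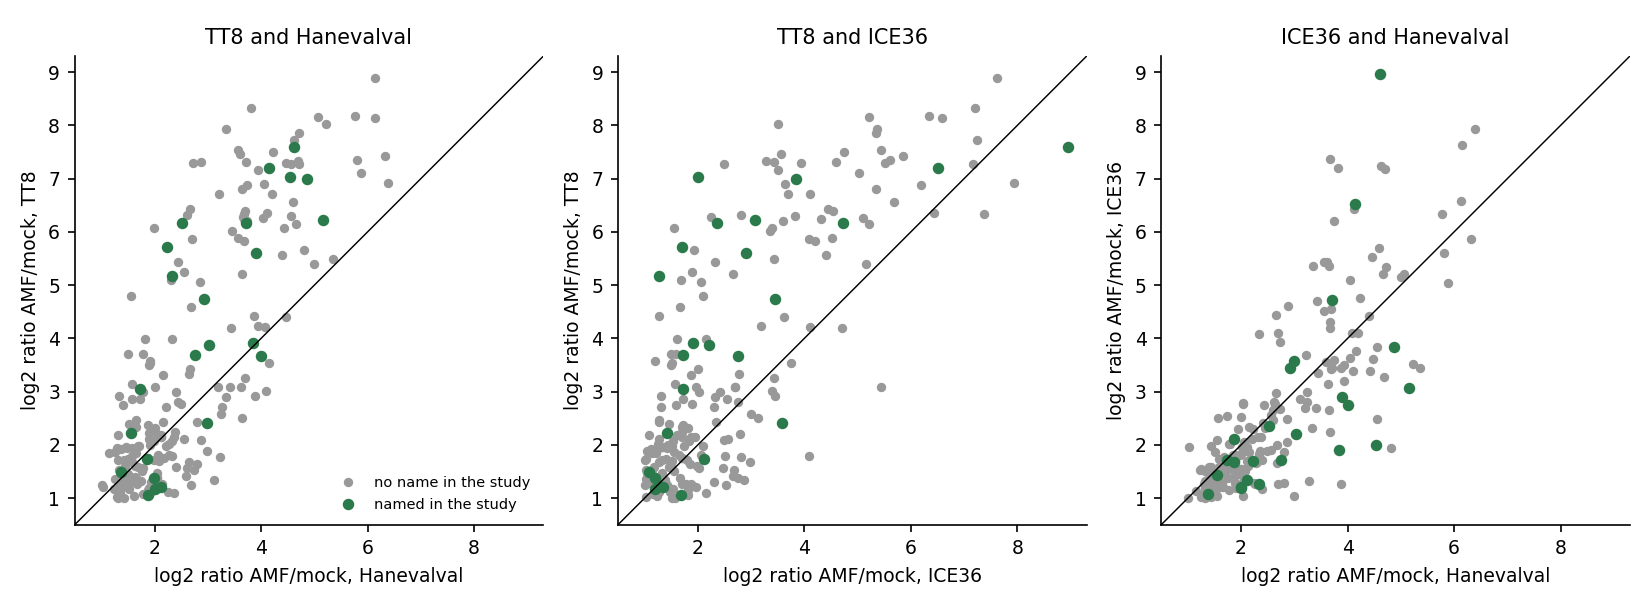
The log2 ratio of AMF-treated to mock-treated roots of the 220 genes in each pair of lines, with the line of equal ratios. Green points are the 24 genes that carry a name. TT8 lies above the line of equal ratios for most genes with large responses, while the median ratios were 2.55 in TT8, 2.31 in Hanevalval and 1.96 in ICE36.

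Names were available for 24 of the 220 genes, and the other 196 are known here by identifier only. The list of 54 AMS-conserved orthologs, chosen by similarity to genes kept in plants that form this symbiosis, had 49 genes tested here. Of these 14 are among the 220, and the rule was met by 25 of the 49 in Hanevalval, 34 in TT8 and 21 in ICE36. The list of 42 amino acid genes, which the study assembled from genes that responded in these samples and which is no independent evidence of a direction, had 41 tested and gave 6. The list of 53 cell wall polysaccharide genes, also assembled from these samples, had 49 tested and gave none, and 38 of the 49 had a log2 ratio under 0 in every line. The remaining 4 names came from the study's scheme of lignin synthesis.

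Several of the AMS-conserved genes carry names of extracellular proteins. Subtilisin inhibitors are small proteins that block serine proteases of the subtilisin family, and 3 genes of this name are among the 220. SETIT_019796mg had 2061, 203, 414 and 590.5 in AMF-treated roots, against 0, 0, 108 and 21.6 in mock-treated roots of Hanevalval. TT8 had 4939.6, 7576, 4577 and 4375 in AMF-treated roots, against 0, 0, 0 and 107 in mock-treated roots. In ICE36 this gene had 109, 219.7, 663 and 995 in AMF-treated roots, against 0, 0, 0 and 0 in mock-treated roots, at least 751-fold higher with AMF against the floor of 3 reads over the 4 mock-treated libraries. No read of it was counted in 9 of the 12 mock-treated libraries, and the 3 that held it are the libraries high in markers. The inhibitors SETIT_011928mg and SETIT_023913mg had reads in every mock-treated group. SETIT_011928mg averaged 130.1 ± 95.9 in AMF-treated and 7.80 ± 2.35 in mock-treated Hanevalval roots, 265 ± 109 in AMF-treated and 4.43 ± 1.37 in mock-treated TT8 roots and 32.4 ± 20.4 in AMF-treated and 3.47 ± 1.70 in mock-treated ICE36 roots (SD, n = 4 each). For SETIT_023913mg the means were 233 ± 153 in AMF-treated and 39.8 ± 33.1 in mock-treated Hanevalval, 1266 ± 419.8 in AMF-treated and 16.7 ± 17.4 in mock-treated TT8 and 165 ± 84.1 in AMF-treated and 31.3 ± 4.78 in mock-treated ICE36 roots (SD, n = 4 each). All 3 inhibitors had their highest AMF mean in TT8.

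Germin-like proteins are cupin-fold glycoproteins of the cell wall and apoplast. SETIT_032400mg, the member of this name, had 1394, 85.4, 188 and 92.3 in AMF-treated roots, against 2.28, 0, 52.2 and 41.0 in mock-treated roots of Hanevalval. Values in TT8 were 2696, 4147, 2941 and 2408 in AMF-treated roots, against 0, 0, 0 and 79.4 in mock-treated roots. ICE36 had 60.5, 68.6, 103 and 207 in AMF-treated roots, against 0, 0.828, 0 and 0 in mock-treated roots. In Hanevalval the AMF-treated replicate 1 was far above the other AMF-treated libraries of the line, and the mock-treated reads again sat mainly in the libraries high in markers. Class III chitinases cut chitin, a polymer of fungal cell walls, and 2 are among the 220. SETIT_033231mg had 2348, 309.8, 1386 and 1561 in AMF-treated roots, against 7.98, 8.54, 136 and 35.6 in mock-treated roots of Hanevalval. TT8 gave 1536, 1598, 1784 and 1673 in AMF-treated roots, against 0.931, 7.81, 12.8 and 26.1 in mock-treated roots. For ICE36 the values were 111, 103, 271 and 431 in AMF-treated roots, against 10.6, 14.9, 23.5 and 10.9 in mock-treated roots. Every AMF-treated TT8 library was above every AMF-treated ICE36 library, and the Hanevalval libraries were spread over both ranges. The study lists SETIT_033231mg as lowered by AMF in each line, opposite to the direction of these values. In each line the listed size is close to that of the log2 ratio of these means, with the sign reversed. The reason for this reversal was not tested. The other chitinase, SETIT_002402mg, averaged 1229.5 ± 786 in AMF-treated and 51.9 ± 36.3 in mock-treated Hanevalval roots, 1227 ± 123 in AMF-treated and 8.33 ± 5.66 in mock-treated TT8 roots and 169.6 ± 92.2 in AMF-treated and 41.6 ± 14.4 in mock-treated ICE36 roots (SD, n = 4 each). Plastocyanin-like domain proteins are copper-binding proteins at the cell surface, and SETIT_020176mg of this name had log2 ratios of 1.55 in Hanevalval, 2.22 in TT8 and 1.43 in ICE36. Without the mock-treated replicates 3 and 4 the Hanevalval ratio was 4.96.

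The list also gave regulators and kinases. AP2 domain proteins are transcription factors of a plant family. SETIT_007857mg, named AP2, had 78.9, 6.95, 12.6 and 29.0 in AMF-treated roots, against 0, 0, 2.80 and 3.24 in mock-treated roots of Hanevalval. In TT8 it had 125, 292, 138 and 154 in AMF-treated roots, against 0, 0, 0 and 5.92 in mock-treated roots. The ICE36 values were 9.46, 15.9, 20.6 and 55.9 in AMF-treated roots, against 0, 0, 0 and 0 in mock-treated roots, at least 38.6-fold higher with AMF against the floor. The 4 AMF-treated TT8 libraries were above every other library of the series. SETIT_038848mg, named AP2c, averaged 92.0 ± 34.1 in AMF-treated and 4.79 ± 7.43 in mock-treated Hanevalval roots, 82.5 ± 29.6 in AMF-treated and 5.52 ± 1.76 in mock-treated TT8 roots and 19.5 ± 8.09 in AMF-treated and 2.04 ± 1.87 in mock-treated ICE36 roots (SD, n = 4 each). The protein kinases, enzymes that phosphorylate other proteins, were SETIT_004962mg and SETIT_028049mg, with log2 ratios of 2.76 in Hanevalval, 3.68 in TT8 and 1.73 in ICE36 for the first and 2.93, 4.75 and 3.45 in the same order for the second. Without the libraries high in markers the Hanevalval ratios of these kinases were 4.07 and 3.97. SETIT_028049mg had 3 reads in all mock-treated ICE36 libraries together, so its ICE36 ratio leans on the pseudocount. The late embryogenesis abundant gene SETIT_039206mg, of a family known from drying seeds, averaged 194 ± 106 in AMF-treated and 4.45 ± 4.83 in mock-treated Hanevalval roots, 118 ± 7.82 in AMF-treated and 0.592 ± 1.18 in mock-treated TT8 roots and 18.5 ± 10.4 in AMF-treated and 1.31 ± 0.469 in mock-treated ICE36 roots (SD, n = 4 each).

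The named transporters among the 220, ABCB12 and ntr1, had their largest log2 ratio in TT8, also without the libraries high in markers. SETIT_012264mg, named ABCB12, belongs to the B subfamily of ATP-binding cassette transporters. It had 89.9, 16.9, 19.96 and 42.9 in AMF-treated roots, against 10.3, 0.949, 12.1 and 9.71 in mock-treated roots of Hanevalval. TT8 had 598, 898, 561 and 554 in AMF-treated roots, against 10.2, 7.81, 5.12 and 22.5 in mock-treated roots. Values of this gene in ICE36 were 14.2, 19.9, 47.3 and 68.0 in AMF-treated roots, against 5.32, 14.1, 10.9 and 12.7 in mock-treated roots. In Hanevalval and ICE36 the lowest AMF-treated value was just above the highest mock-treated value, while in TT8 the groups were far apart. The nitrate transporter SETIT_004857mg, named ntr1, of a family that moves nitrate or peptides across membranes, had 112, 58.6, 60.9 and 70.9 in AMF-treated roots, against 6.84, 2.85, 28.9 and 18.3 in mock-treated roots of Hanevalval. Its TT8 values were 779.8, 946, 604 and 581 in AMF-treated roots, against 7.45, 9.76, 17.1 and 42.7 in mock-treated roots. ICE36 roots gave 32.2, 42.7, 38.7 and 65.3 in AMF-treated roots, against 24.8, 9.94, 19.9 and 17.3 in mock-treated roots. The mock-treated levels of the 3 lines overlapped, and the AMF-treated TT8 libraries stood above all others.

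**Figure D4:**
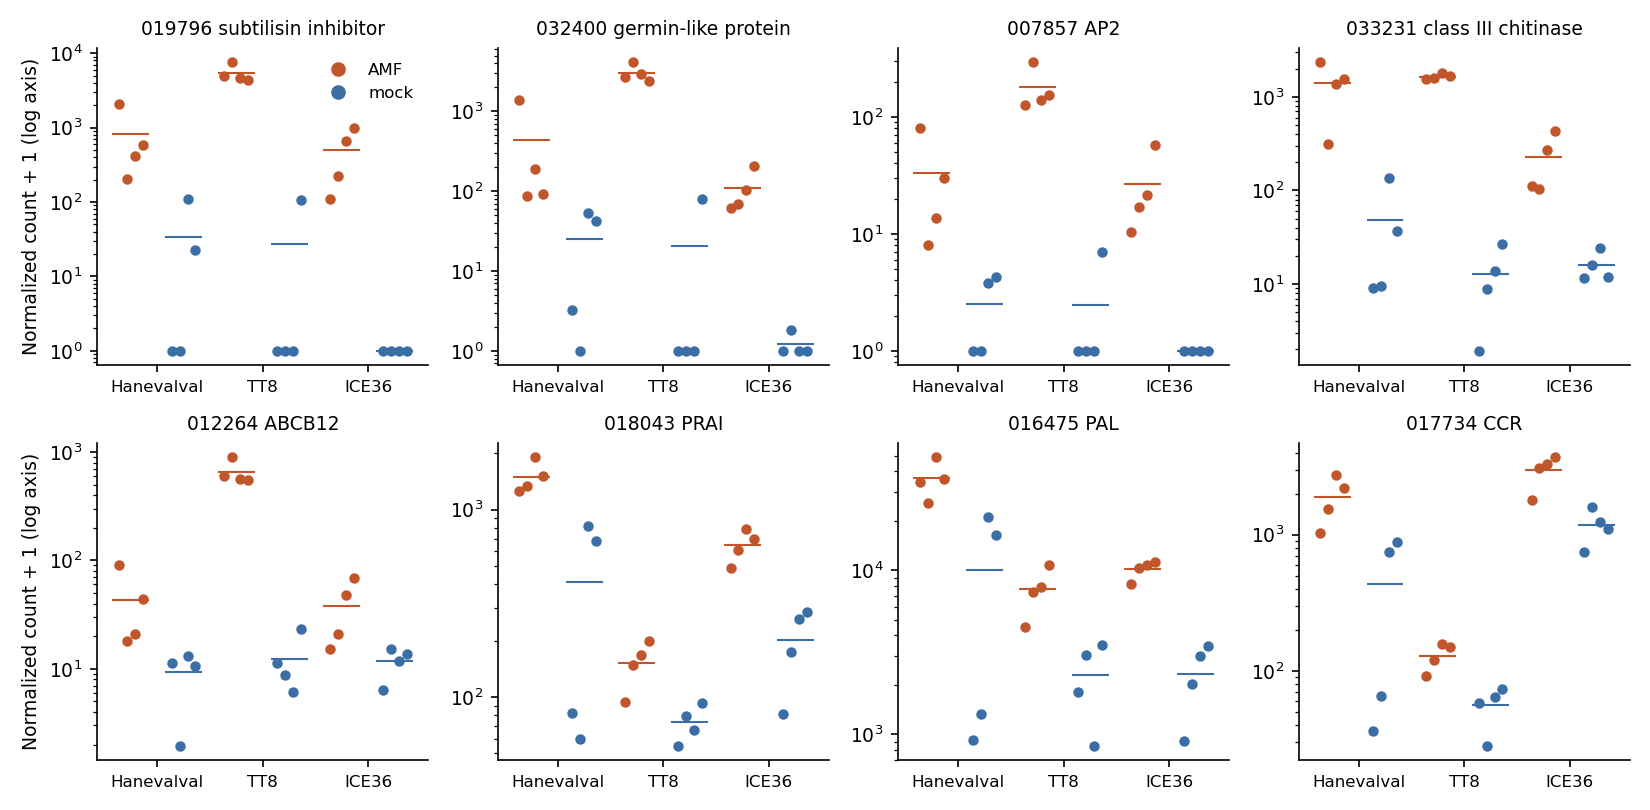
Normalized count + 1 on a log axis of 8 named genes in each library, by line, with AMF left of mock and the group mean as a line (n = 4). The upper row and ABCB12 have their highest or joint highest AMF level in TT8, whereas PRAI and PAL are highest in AMF-treated Hanevalval and CCR in AMF-treated ICE36.

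Named genes of amino acid metabolism, which include PAL, had smaller log2 ratios, with medians of 1.87 in Hanevalval, 1.44 in TT8 and 1.45 in ICE36 over 6 genes, against 3.80, 5.94 and 2.83 over the 14 AMS-conserved genes. The gap in Hanevalval rests on mock-treated replicates 3 and 4. Without the 3 libraries high in markers the medians were 4.497 in Hanevalval and 1.74 in TT8 for the amino acid genes, with ranges of 3.08 to 5.24 and 1.19 to 4.44. For the AMS-conserved genes they were then 4.999 in Hanevalval and 6.56 in TT8, with ranges of 2.72 to 9.68 and 2.43 to 12.4. Phenylalanine ammonia-lyase (PAL) makes cinnamic acid from phenylalanine, the entry to lignin and other phenylpropanoids. SETIT_016475mg, a PAL gene and 1 of the 5 of the 220 with the highest mean AMF value, had 34672, 25716, 48961 and 35985 in AMF-treated roots, against 923, 1336, 21244 and 16468 in mock-treated roots of Hanevalval. TT8 libraries held 4509.9, 7402, 7865 and 10776 in AMF-treated roots, against 1799.9, 3046, 849 and 3489 in mock-treated roots. Values in ICE36 were 8263, 10278, 10734 and 11250.3 in AMF-treated roots, against 906, 2029, 2990.2 and 3442 in mock-treated roots. Mock-treated Hanevalval split into 2 low libraries and the 2 high in markers, which were not far below the AMF-treated range. Without those 2, its log2 ratio in Hanevalval was 5.01, against 1.86 with them. The other PAL gene, SETIT_009345mg, averaged 11694 ± 1937 in AMF-treated and 2934 ± 2930.2 in mock-treated Hanevalval roots, 2138 ± 738 in AMF-treated and 818 ± 308 in mock-treated TT8 roots and 3999 ± 478 in AMF-treated and 1745 ± 607 in mock-treated ICE36 roots (SD, n = 4 each).

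Downstream of PAL, cinnamoyl-CoA reductase (CCR) reduces CoA esters of the acids to aldehydes, and cinnamyl alcohol dehydrogenase (CAD) reduces the aldehydes to monolignols. Laccases oxidise monolignols for coupling into lignin. The CCR gene SETIT_017734mg had 1026, 1537, 2729 and 2211 in AMF-treated roots, against 35.3, 64.6, 748 and 877 in mock-treated roots of Hanevalval. In TT8 there were 91.6, 119, 156 and 149 in AMF-treated roots, against 57.7, 27.3, 63.1 and 72.3 in mock-treated roots. ICE36 had 1794, 3071, 3288 and 3712 in AMF-treated roots, against 750.3, 1596, 1238 and 1094 in mock-treated roots. TT8 had the lowest mean of this gene in both treatments, and every mock-treated ICE36 library was above every AMF-treated TT8 library. The CAD gene SETIT_030289mg averaged 9514 ± 2468 in AMF-treated and 1167 ± 1437 in mock-treated Hanevalval roots, 766 ± 516 in AMF-treated and 51.3 ± 56.9 in mock-treated TT8 roots and 1509.7 ± 571 in AMF-treated and 325 ± 114 in mock-treated ICE36 roots (SD, n = 4 each). Laccase SETIT_021601mg had log2 ratios of 2.99 in Hanevalval, 2.42 in TT8 and 3.58 in ICE36, and laccase SETIT_026150mg had 3.84, 3.91 and 1.91 in the same lines. The 4 lignin genes ranged from 2.12 to 3.84 in Hanevalval and from 1.21 to 3.91 in TT8, and without the libraries high in markers from 3.57 to 7.26 and from 1.37 to 5.003.

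Arginine synthesis was represented by 3 steps. N-acetylglutamate synthase opens the pathway, acetylornithine transaminase works midway, and argininosuccinate synthase takes part in its last steps. The synthase SETIT_017738mg had 4007, 3467, 5932 and 4065 in AMF-treated roots, against 92.3, 137, 2373 and 2659.7 in mock-treated roots of Hanevalval. TT8 held 679, 1189.9, 1332 and 1768 in AMF-treated roots, against 34.5, 54.6, 79.3 and 427 in mock-treated roots. The ICE36 libraries had 1405, 1381, 2115 and 2086 in AMF-treated roots, against 338, 482, 693 and 599.8 in mock-treated roots. The mock-treated replicate 4 of TT8 was far above the other mock-treated TT8 libraries. Acetylornithine transaminase SETIT_021951mg averaged 7308 ± 846 in AMF-treated and 2825 ± 2284 in mock-treated Hanevalval roots, 2098 ± 575 in AMF-treated and 743 ± 317 in mock-treated TT8 roots and 3692 ± 454 in AMF-treated and 1737 ± 523 in mock-treated ICE36 roots (SD, n = 4 each). Argininosuccinate synthase SETIT_021906mg had log2 ratios of 2.0 in Hanevalval, 1.18 in TT8 and 1.21 in ICE36, and of 3.79 in Hanevalval without its mock-treated replicates 3 and 4. Phosphoribosylanthranilate isomerase (PRAI), an enzyme of tryptophan synthesis, is encoded by SETIT_018043mg, which averaged 1503 ± 291 in AMF-treated and 408 ± 395 in mock-treated Hanevalval roots, 152 ± 44.6 in AMF-treated and 72.5 ± 16.5 in mock-treated TT8 roots and 644 ± 127 in AMF-treated and 199.7 ± 92.5 in mock-treated ICE36 roots (SD, n = 4 each).

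The largest mean log2 ratios of all belonged mostly to genes with no name here. SETIT_011885mg led with a mean of 7.55 over the lines. It had 2788, 437, 2011 and 2247 in AMF-treated roots, against 0, 0, 93.3 and 8.63 in mock-treated roots of Hanevalval. TT8 had values of 1996, 2313, 2437 and 2309.9 in AMF-treated roots, against 0, 0.976, 0 and 14.2 in mock-treated roots. In ICE36 there were 60.5, 176, 388 and 521 in AMF-treated roots, against 0, 0, 1.81 and 0 in mock-treated roots. Its mock-treated reads were almost all in Hanevalval 3 and TT8 4. The next were SETIT_015214mg with a mean of 7.08, the subtilisin inhibitor SETIT_019796mg with 7.06, SETIT_012198mg with 6.95 and SETIT_012488mg with 6.77. SETIT_020115mg, SETIT_005009mg, SETIT_032627mg, SETIT_032078mg and SETIT_039476mg followed, with means of 6.54, 6.53, 6.45, 6.39 and 6.25. In ICE36 the mock-treated libraries held no read of SETIT_012198mg, SETIT_012488mg, SETIT_032627mg and SETIT_032078mg, which were at least 143-fold, 121-fold, 222-fold and 217-fold higher with AMF against the floor. One gene, SETIT_024639mg, chosen after its values were seen, had no read in any of the 12 mock-treated libraries, including the 3 high in markers. It had 27.4, 5.96, 8.40 and 20.4 in AMF-treated roots, against 0, 0, 0 and 0 in mock-treated roots of Hanevalval. TT8 roots held 100.3, 197, 83.9 and 90.1 in AMF-treated roots, against 0, 0, 0 and 0 in mock-treated roots. ICE36 roots had 3.78, 7.95, 6.02 and 28.0 in AMF-treated roots, against 0, 0, 0 and 0 in mock-treated roots. Against the floor it was at least 20.4-fold higher with AMF in Hanevalval, 162-fold in TT8 and 17.3-fold in ICE36. At the other end of abundance, SETIT_005859mg, SETIT_034404mg, SETIT_006063mg and SETIT_001260mg had, with the PAL gene SETIT_016475mg, the highest mean AMF values. SETIT_005859mg averaged 19396 ± 12729 in AMF-treated and 5054 ± 1522 in mock-treated Hanevalval roots, 10061 ± 1661 in AMF-treated and 4049 ± 1204 in mock-treated TT8 roots and 36795 ± 7312 in AMF-treated and 7439 ± 2688 in mock-treated ICE36 roots (SD, n = 4 each). The log2 ratios of SETIT_034404mg, SETIT_006063mg and SETIT_001260mg lay between 1.02 and 2.03. Without the libraries high in markers the 5 most abundant genes had ratios of 2.32 to 5.01 in Hanevalval and 1.45 to 2.02 in TT8, and the 10 with the largest mean ratios had 7.38 to 10.9 and 7.83 to 12.4.

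Whether the response to AMF differed in size between lines was examined as the difference in response, the mean log2(value + 1) of AMF minus mock in 1 line less the same in another. It was fitted with limma over all 24 libraries and adjusted by Benjamini-Hochberg over all 23323 genes, and was called where the adjusted p was no higher than 0.05 and the difference 1 or more in size. Each line's response had entered the choice of the 220 genes, so the counts of calls describe them and are not weighed against the background given beside them. The response was larger in TT8 than in Hanevalval for 33 of the 220 genes and smaller for 0 (all genes, 7.19% larger and 3.79% smaller). Against ICE36 it was larger in TT8 for 34 and smaller for 0 (all genes, 6.8% and 3.9%). No call was made between ICE36 and Hanevalval by limma, 0 in each direction (all genes, 0.0172% larger and 0.00858% smaller in ICE36). Of the 220, 14 had an unadjusted limma p under 0.05 together with a difference of 1 or more in size. There were 0 calls by edgeR (all genes, 12 larger and 4 smaller) and 3 by DESeq2 (all genes, 147 larger and 38 smaller). In 20 genes TT8 had the larger response in both pairs. Both pairs use the same TT8 libraries, so some overlap comes with the design, and it was not counted over all genes. The AMS-conserved list supplied 6 of the 33 and 7 of the 34, while none of the named amino acid and lignin genes was called in any pair. Single libraries moved these counts. The 33 became 17 without AMF-treated Hanevalval replicate 2 or mock-treated TT8 replicate 1, and 18 without mock-treated TT8 replicate 2 or 3 or AMF-treated TT8 replicate 2. Over all genes, those fits called 1087 to 1533 larger and 567 to 886 smaller. The 34 became 62 without mock-treated TT8 replicate 4 (all genes, 2643 larger and 1364 smaller). Between ICE36 and Hanevalval 2 genes were called without mock-treated Hanevalval replicate 3 and 1 without AMF-treated Hanevalval replicate 1. Over all genes, the first of these fits called 187 larger and 45 smaller in ICE36, and the second 19 and 4.

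The largest called difference was that of SETIT_037319mg, an unnamed gene. It had 357, 62.6, 134 and 152 in AMF-treated roots, against 5.70, 11.4, 56.9 and 29.1 in mock-treated roots of Hanevalval. TT8 stood at 2685, 4351, 3150.4 and 2714 in AMF-treated roots, against 0, 1.95, 0 and 75.8 in mock-treated roots. The ICE36 values of the gene were 47.3, 132, 131 and 201 in AMF-treated roots, against 8.87, 9.11, 7.23 and 4.55 in mock-treated roots. Every AMF-treated TT8 library was above every other library of the series. The response was larger in TT8 than in Hanevalval by 6.75 ± 1.36 (SE; adjusted p = 0.00389) and larger than in ICE36 by 5.87 ± 1.36 (SE; adjusted p = 0.00860) on the log2 scale. For the germin-like SETIT_032400mg the TT8 response exceeded that of Hanevalval by 5.42 ± 1.79 (SE; adjusted p = 0.0452), and for SETIT_032036mg by 4.76 ± 1.11 (SE; adjusted p = 0.00843). Against ICE36 the largest were SETIT_008807mg, at 6.18 ± 1.87 (SE; adjusted p = 0.0320), and the chitinase SETIT_002402mg, at 5.35 ± 0.85 (SE; adjusted p = 0.000748). ABCB12 was called in both pairs, by 3.64 ± 0.86 (SE; adjusted p = 0.00917) over Hanevalval and 4.35 ± 0.86 (SE; adjusted p = 0.00357) over ICE36. The nitrate transporter ntr1, SETIT_004857mg, was as well, by 2.76 ± 0.73 (SE; adjusted p = 0.0169) and 4.16 ± 0.73 (SE; adjusted p = 0.00163), and so was the inhibitor SETIT_023913mg, by 3.77 ± 0.88 (SE; adjusted p = 0.00853) and 4.29 ± 0.88 (SE; adjusted p = 0.00425). AP2, SETIT_007857mg, passed the threshold over Hanevalval, by 3.20 ± 1.01 (SE; adjusted p = 0.0377), and did not over ICE36, where the difference was 2.26 ± 1.01 (SE; adjusted p = 0.137). SETIT_031895mg, whose ratio was 6.34 in TT8, 7.37 in ICE36 and 3.67 in Hanevalval, differed between TT8 and Hanevalval by 3.74 ± 0.92 (SE; adjusted p = 0.0115). Not all of these calls were made by every tool. With edgeR and DESeq2 on the recovered reads, the adjusted p for SETIT_032400mg over Hanevalval was 0.176 and 0.351, for SETIT_008807mg over ICE36 0.0761 and 0.132, for SETIT_037319mg over ICE36 0.107 and 0.110, and for SETIT_007857mg over Hanevalval 0.318 and 0.182. SETIT_031895mg over Hanevalval missed the threshold with edgeR alone, at an adjusted p of 0.0644.

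These counts changed when the 3 mock-treated libraries high in markers were left out, an alternative added after the data were seen. The response was then larger in TT8 than in Hanevalval for 40 genes and smaller for 72 (all genes, 15.1% and 10.1%), where 30 of the 33 calls remained. Against ICE36 it was larger in TT8 for 89 and smaller for 0 (all genes, 13.8% and 7.35%), with all 34 calls kept. Between ICE36 and Hanevalval it was larger in ICE36 for 1 and smaller for 110 (all genes, 5.85% and 7.38%). Only 2 of 4 mock-treated Hanevalval libraries stay in this fit. Among named genes, the TT8 response of the CCR gene SETIT_017734mg minus that of Hanevalval was -3.75 ± 0.54 (SE; adjusted p = 4.64e-05) without these libraries and -1.88 ± 1.00 (SE; adjusted p = 0.206) with them. For PRAI, SETIT_018043mg, the values were -3.25 ± 0.51 (SE; adjusted p = 9.04e-05) without and -1.67 ± 0.86 (SE; adjusted p = 0.191) with them. The TT8 response of ABCB12 minus that of Hanevalval was 3.34 ± 0.93 (SE; adjusted p = 0.00887) without them. AP2, SETIT_007857mg, then passed the threshold over ICE36 as well, with a difference of 2.96 ± 0.83 (SE; adjusted p = 0.0100).

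**Figure D5:**
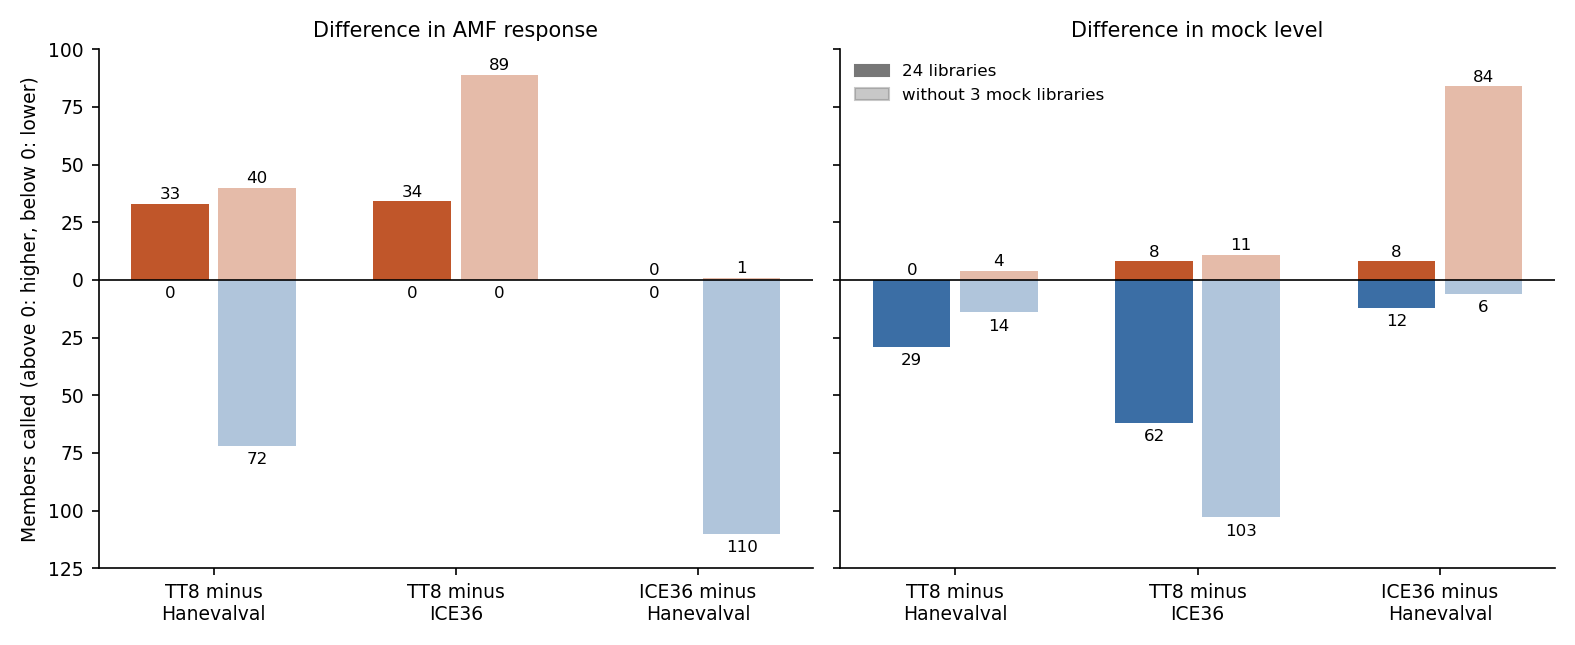
Number of the 220 genes called by limma for each pair of lines, in the response to AMF on the left and in the mock level on the right, higher above 0 and lower below. Dark bars are the fit of all 24 libraries and pale bars the fit without the 3 mock-treated libraries high in markers, in which TT8 minus Hanevalval changes from 33 and 0 to 40 and 72.

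The level in mock-treated roots also differed between lines. It was lower in TT8 than in Hanevalval for 29 genes and higher for 0 (all genes, 2.23% lower and 1.53% higher). Without the 3 mock-treated libraries 13 of the 29 calls remained, and 14 genes were lower and 4 higher (all genes, 2.83% and 1.66%). Compared with ICE36, TT8 was lower for 62 and higher for 8 (all genes, 10.6% and 5.94%), and 103 and 11 without those libraries (14.5% and 8.34%). ICE36 was higher than Hanevalval for 8 genes and lower for 12 (all genes, 4.11% and 2.81%), and higher for 84 and lower for 6 without them (11.9% and 6.37%). The count for TT8 minus Hanevalval was 10 without mock-treated Hanevalval replicate 3, 13 without replicate 4, 85 without replicate 1 and 79 without replicate 2. Over all genes, those fits called 271, 292, 1550 and 1137 lower and 193, 332, 970 and 770 higher. Leaving out mock-treated TT8 replicates 1 to 4 in turn gave 11, 10, 14 and 54 of the 220. Over all genes, these fits called 309, 285, 342 and 1465 lower and 231, 202, 268 and 619 higher. For ICE36 minus Hanevalval the 20 calls became 12, 11, 11 and 13 without mock-treated ICE36 replicates 1 to 4. Over all genes, the fit without replicate 1 called 913 higher and 656 lower. The counts without the other replicates are given as a description, and nothing is read from them. Of the 29 genes lower in TT8 than in Hanevalval, 28 had a mean log2 ratio under 4, as had 160 of all 220. Genes with few mock-treated reads leave little room for a lower level in TT8, so nothing is read from this split. Of the 29, 21 were also called between TT8 and ICE36. Both pairs use the same TT8 libraries, and this overlap was not counted over all genes.

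Some of the mock differences were as large as the responses. SETIT_038955mg had 1555, 1280.0, 1159.6 and 1467 in AMF-treated roots, against 2.28, 16.1, 647 and 786 in mock-treated roots of Hanevalval. TT8 had 62.2, 151, 123 and 199.9 in AMF-treated roots, against 0, 0, 0.853 and 40.3 in mock-treated roots. ICE36 values were 236, 381, 330.0 and 349.6 in AMF-treated roots, against 37.2, 106, 207 and 212 in mock-treated roots. Mock-treated TT8 replicates 1 to 3 held at most 1 read each, while replicate 4 was at 40.3. The mock level in TT8 minus that in Hanevalval was -4.63 ± 1.31 (SE; adjusted p = 0.0388), and minus that in ICE36 -5.29 ± 1.31 (SE; adjusted p = 0.00542). Without the libraries high in markers these differences were -2.61 ± 0.66 (SE; adjusted p = 0.0203) and -6.56 ± 0.55 (SE; adjusted p = 4.00e-08). SETIT_009099mg differed by -4.51 ± 1.25 (SE; adjusted p = 0.0357) between TT8 and Hanevalval, and by -2.34 ± 0.66 (SE; adjusted p = 0.0369) without those libraries. SETIT_039963mg was lower in mock-treated TT8 than in ICE36 with a difference of -5.93 ± 0.80 (SE; adjusted p = 1.96e-05). Between ICE36 and Hanevalval the largest were SETIT_031895mg, at -4.58 ± 0.65 (SE; adjusted p = 5.05e-05), and SETIT_022947mg, at 3.45 ± 0.60 (SE; adjusted p = 0.000469). SETIT_022947mg had 2936, 3847, 10458 and 7842 in AMF-treated roots, against 161, 208, 1508 and 2008 in mock-treated roots of Hanevalval. In TT8 it stood at 643, 878, 847 and 839 in AMF-treated roots, against 277, 213, 289 and 575 in mock-treated roots. ICE36 libraries gave 12711, 16292, 19802 and 12254 in AMF-treated roots, against 4456, 7579, 6933 and 6293 in mock-treated roots. Every mock-treated ICE36 library was above every mock-treated library of the other lines. Of the lignin genes, CCR was lower in mock-treated TT8 than in ICE36, with a difference of -4.42 ± 0.71 (SE; adjusted p = 0.000143), and so was laccase SETIT_026150mg, with -4.86 ± 0.66 (SE; adjusted p = 2.16e-05). CCR was higher in mock-treated ICE36 than in Hanevalval, at 2.51 ± 0.71 (SE; adjusted p = 0.0229). With edgeR and DESeq2 the adjusted p of this difference was 0.147 and 0.0973. Without the libraries high in markers it was 4.53 ± 0.41 (SE; adjusted p = 2.05e-07) by limma, and that of SETIT_022947mg between the same lines was 5.08 ± 0.36 (SE; adjusted p = 1.29e-08).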

How the data were processed

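Reads were trimmed with Trimmomatic 0.38, aligned to the Setaria italica reference (genome v2.0) with HISAT2 2.1.0, counted per gene with featureCounts 2.0.0 and normalized with DESeq2 1.26.0, per the study and the submitters' processing notes. The authors deposited 1 table per line of these normalized counts, a signal unit in which each library's gene counts are divided by a size factor. The values gave back whole reads within 0.05 for 100% of 607864 values. The size factors matched the median of ratios over all 24 libraries within ratios of 0.997 to 1.002, so levels were set across tables. How reads shared by paralogs or by overlapping genes were assigned is not given in the sources used here.

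The 220 genes were taken by the rule in the report from 23789 genes in all 3 tables, leaving out 97 noncoding RNA genes. The genes, lists and tests were chosen with earlier results of these data known. Line differences were taken from a limma 3.58.1 fit of 6 group means to log2(value + 1), with its trend option, with Benjamini-Hochberg adjustment over 23323 genes. The steps were tested on simulated data. edgeR 4.0.16 and DESeq2 1.42.0, on the recovered reads, were alternatives, with other pseudocounts, scalings, filters, library subsets and a replicate block. R 4.3.3, Python 3.11.15, numpy 2.4.6, pandas 2.3.3 and matplotlib 3.10.9 were used.

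Genes named in the text are the 10 with the highest mean log2 ratio, the 5 with the highest mean AMF value, all that the study's tables name, the largest called line differences (3 in response and 2 in mock level per pair) and 3 on each side of the limit. The 4 names from the lignin scheme were added after the data were seen, as was SETIT_024639mg. The RefSeq gene table matched 0 identifiers, so positions, sequences, protein families and root or leaf marker genes were not used here. Floors cover counting error only, while an SD or SE measures the spread between libraries.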

Additional observations from a re-analysis of the deposited data

Results flagged for a closer look

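The 48 named genes were examined in 6 groups of 4 libraries each, 288 in all, for a library that lay far from the other 3 by Dixon's test at 95%. Chance alone meets this in about 5% of groups where values are independent and normally distributed. The values here were untransformed counts, and 3 zeros with 1 value above 0 always pass. The number of cases is therefore not weighed against that share. There were 53 such cases, and 23 of them were the mock-treated replicate 4 of TT8, 1 of the 3 mock-treated libraries high in AMS markers. In that library the normalized counts that stood above the other mock-treated TT8 libraries were SETIT_005009mg at 45.0, SETIT_006063mg at 3403, SETIT_007857mg at 5.92, SETIT_008807mg at 71.1, SETIT_009099mg at 94.8, SETIT_011885mg at 14.2 and SETIT_012198mg at 5.92. Further such values there were SETIT_012488mg at 1.18, SETIT_015214mg at 21.3, SETIT_017738mg at 427, SETIT_019796mg at 107, SETIT_020115mg at 14.2, SETIT_020176mg at 306 and SETIT_023913mg at 42.7. The rest were SETIT_030289mg at 136, SETIT_031895mg at 104, SETIT_032078mg at 68.7, SETIT_032400mg at 79.4, SETIT_032627mg at 19.0, SETIT_034404mg at 6023, SETIT_037319mg at 75.8, SETIT_038955mg at 40.3 and SETIT_039206mg at 2.37. SETIT_012488mg and SETIT_039206mg had 1 and 2 reads in this library and 0 in the other 3, so these are at the limit of counting. Over all 220 genes the mean log2(value + 1) of this library was 5.39, against 3.91 to 4.01 in the other mock-treated TT8 libraries.

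Mock-treated Hanevalval replicate 3, which also held marker reads, stood above the other 3 for 8 genes. These were SETIT_011885mg at 93.3, SETIT_012198mg at 30.8, SETIT_012488mg at 45.7, SETIT_015214mg at 37.3, SETIT_020115mg at 29.8, SETIT_032078mg at 21.5, SETIT_038848mg at 15.9 and SETIT_039476mg at 20.5. Among AMF-treated Hanevalval libraries, replicate 1 was far above the others for SETIT_005009mg at 747, SETIT_011928mg at 272, SETIT_028049mg at 92.0, SETIT_032036mg at 82.2 and SETIT_032400mg at 1394, and replicate 2 far below for SETIT_039476mg at 91.4. In AMF-treated TT8, replicate 2 was far above for SETIT_007857mg at 292, SETIT_012264mg at 898, SETIT_023913mg at 1892, SETIT_031895mg at 4266 and SETIT_032627mg at 2790.2, and replicate 1 far below for SETIT_012198mg at 635 and SETIT_022947mg at 643. ICE36 gave few cases, mostly from single reads in mock-treated libraries. They were SETIT_031895mg at 0.828 and SETIT_032400mg at 0.828 in replicate 2, SETIT_005009mg at 0.904, SETIT_011885mg at 1.81 and SETIT_032036mg at 0.904 in replicate 3 and SETIT_015214mg at 0.910, SETIT_020115mg at 1.82, SETIT_028049mg at 2.73 and SETIT_039476mg at 0.910 in replicate 4. Far from the other AMF-treated ICE36 libraries was replicate 1, with 1.05% of reads on the 220 genes against 1.41% to 1.46%.

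The response to AMF differed between lines, by the limma test of the difference described above, for the following named genes, each larger in TT8. Over Hanevalval the log2 differences in response were SETIT_002402mg at 2.74, SETIT_004857mg at 2.76, SETIT_007857mg at 3.20, SETIT_012264mg at 3.64, SETIT_023913mg at 3.77, SETIT_031895mg at 3.74, SETIT_032036mg at 4.76, SETIT_032400mg at 5.42, SETIT_032627mg at 4.72 and SETIT_037319mg at 6.75. Over ICE36 the log2 differences in response were SETIT_002402mg at 5.35, SETIT_004857mg at 4.16, SETIT_008807mg at 6.18, SETIT_011928mg at 2.86, SETIT_012264mg at 4.35, SETIT_023913mg at 4.29, SETIT_032036mg at 3.55, SETIT_033231mg at 3.87, SETIT_037319mg at 5.87 and SETIT_039206mg at 3.59. Without the 3 mock-treated libraries high in markers, the difference of SETIT_002402mg over Hanevalval was 2.13 ± 0.84 (SE; adjusted p = 0.0549) by limma and missed the threshold, and every other difference of this list stayed past it. With the count tests on the recovered reads more of these calls were lost. Over ICE36 the edgeR adjusted p was 0.196 for SETIT_032036mg, 0.112 for SETIT_039206mg, 0.107 for SETIT_037319mg, 0.0761 for SETIT_008807mg, 0.0665 for SETIT_033231mg and 0.0510 for SETIT_011928mg, and the DESeq2 adjusted p was 0.0990 for SETIT_032036mg, 0.110 for SETIT_037319mg and 0.132 for SETIT_008807mg. Over Hanevalval edgeR gave 0.318 for SETIT_007857mg, 0.176 for SETIT_032400mg and 0.0644 for SETIT_031895mg, and DESeq2 0.351 for SETIT_032400mg, 0.182 for SETIT_007857mg and 0.100 for SETIT_032627mg.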

How the results depend on the processing

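The count of genes that met the rule was 220 and stayed between 201 and 293 when each library was left out in turn, without TT8 AMF replicate 4 and TT8 AMF replicate 1 at the ends. It was 88 at a log2 ratio of 2 or more, 461 with no limit on the ratio and 460 without the 3 mock-treated libraries high in markers, and between 164 and 232 under the other settings, which were other pseudocounts, scalings and filters on low values.

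Calls among the 220 genes, summed over both directions, were 33 for the response of TT8 minus Hanevalval, 34 for TT8 minus ICE36 and 0 for ICE36 minus Hanevalval. Leaving out each library in turn gave 17 to 49, 25 to 62 and 0 to 2. The first of these was 17 or 18 without Hanevalval AMF replicate 2, TT8 AMF replicate 2 or TT8 mock replicate 1, 2 or 3, and the second 62 without TT8 mock replicate 4. Without TT8 mock replicate 4, all genes had 2615 larger and 1266 smaller over Hanevalval and 2643 and 1364 over ICE36. The 25 came without TT8 mock replicate 1 (all genes, 895 larger and 549 smaller). For the mock level the counts were 29, 70 and 20 for the same pairs, and 10 to 85, 48 to 85 and 11 to 22 with each library left out. The first moved by over 1.5 times without any 1 mock-treated library of Hanevalval or TT8, and the third without any 1 of ICE36. These ranges are descriptions of the 220 genes, and nothing is read from them. For the response of TT8 minus Hanevalval, a pseudocount of 0.25 gave 17, a mean of 20 or more 19, the 16 libraries of the lines alone 14 and edgeR 18. Over all genes, these fits called 1649, 1513, 794 and 1614 larger and 870, 811, 511 and 872 smaller. TT8 minus ICE36 had 61 with a pseudocount of 8, 21 at a mean of 20 or more, 52 in 16 libraries and 19 with edgeR. All genes there had 1628, 1419, 2151 and 1117 larger and 896, 831, 1213 and 965 smaller. The higher mean leaves 164 of the 220 genes, and 19484 genes in all, to test. ICE36 minus Hanevalval had 1 with either other pseudocount and 3 with DESeq2. Over all genes, 4 were larger and 4 smaller with a pseudocount of 8, and 12 and 3 with 0.25. With DESeq2 they were 147 and 38. The mock level of TT8 minus Hanevalval had 10 calls in 16 libraries, 76 with edgeR and 99 with DESeq2, all lower in TT8. Over all genes, these fits called 254, 921 and 1346 lower and 182, 357 and 514 higher. The mock level of ICE36 minus Hanevalval had 41 calls with DESeq2 (all genes, 981 higher and 969 lower). Without the 3 mock-treated libraries high in markers the response gave 112, 89 and 111 calls and the mock level 18, 114 and 90. The cause of these shifts was not tested.

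A fit with the replicate number as a block gave 53 calls for the mock level of TT8 minus Hanevalval (all genes, 873 lower and 531 higher). For the other results its counts were within 1.5 times those above. The correlations of same-numbered AMF-treated and mock-treated libraries ran from -0.15 to 0.20, so the numbers were not taken to pair the libraries. Differences of single named genes that were called with all 24 libraries had 1567 values under the alternatives. Of these, 1334 kept their direction and call, 233 kept their direction and lost the call, and 0 changed direction. A called difference is unlikely to change direction, so the 0 says little. Differences that were not called, such as those in response of CCR and PRAI, are not among them.

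Counting limits the ratios of genes with few mock-treated reads, which were at most 3 reads over the 4 libraries for 5 of the 220 genes in Hanevalval, 18 in TT8 and 37 in ICE36.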
